A study of Homo sapiens with 3 samples.

Results

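The HOX genes encode homeodomain transcription factors that give cells their position along the body axis. In the human genome they stand in 4 clusters, HOXA, HOXB, HOXC and HOXD, in which the gene number follows the order along the chromosome. Low-numbered (anterior) genes are used towards the head of the embryo and high-numbered (posterior) genes towards the tail and in the limbs. The clusters are known to contact regulatory DNA on both flanks, and Polycomb proteins keep their unused genes silent. The 38 genes described here were taken by name, 10 of HOXA, 10 of HOXB, 9 of HOXC and 9 of HOXD, and all 38 were placed by the RefSeq annotation of GRCh38.p14. They stand beside 9909 protein-coding genes that touched a loop end anywhere in the deposited list.

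The study asked which features of chromosome folding depend on ORC2, a subunit of the complex that marks replication origins. Hi-C, which counts ligations between DNA sites that lie close together in fixed nuclei, was done on HCT116 cells, an established colorectal cancer line. The 3 groups were HCT116 p53-/- cells (called wild-type), ORC2B2, a single CRISPR/Cas9 clone lacking ORC2 (ORC2-/-), and an ORC2 rescue clone that received ORC2 with both untranslated regions from the vector pLHCXORC2. Every group, the control included, lacked p53 and was maintained in McCoy's 5A-modified medium with fetal bovine serum, and each is represented by 1 library.

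Loops came from the authors' deposited table, which gives 2 outer positions in hg38 and a class word for each of 279618 usable loops. The words are conserved gain (gained below), conserved lost (lost) and not conserved. The table does not say which samples a gain refers to, so no direction with respect to ORC2 can be drawn, and not conserved is not taken as unchanged. It holds no contact counts and no values per library. Depth is therefore unknown, the spread between cultures could not be given for any value, and the 3 groups could not be tested against each other. Shares carry 95% Wilson intervals for counting error, computed as if loops were independent, which neighbouring loops are not. Columns of compartment scores carry names that match no sample and were not used. Expression was not measured in these libraries, so the labelled cell type could not be checked against markers.

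A loop was counted at a gene when the 5 kb inward from either outer position overlapped the gene body, and once per cluster however many genes it touched. On this count 991 loops had an end on a HOX gene, which is 0.354% of the list. None had both ends on genes of 1 cluster: every one of the 991 ran from a HOX gene to DNA outside the gene bodies of its cluster. Listed ends were found at 36 of the 38 genes. The exceptions were HOXB1 and HOXB2, at the anterior end of HOXB.

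Several microRNA genes lie in the HOX clusters, and 3 of their mature products are shown: the miR-196 pair because a shared seed marks related hairpins in different clusters, and miR-10a because its hairpin lies inside a gene of HOXB, the cluster with gained loops. They are RefSeq sequences of GRCh38.p14, written 5′ to 3′ with the seed (bases 2 to 8), which pairs with target RNAs, in capitals.
hsa-miR-196a-5p: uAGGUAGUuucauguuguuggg
hsa-miR-196b-5p: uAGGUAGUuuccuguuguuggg
hsa-miR-10a-5p: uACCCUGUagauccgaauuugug
The miR-196 products share the seed AGGUAGU and differ at 1 base, A12C, counted from the 5′ end of miR-196a. Their hairpins lie in 3 clusters: MIR196B at chr7:27169480-27169563 between HOXA9 and HOXA10, MIR196A1 at chr17:48632490-48632559 past HOXB9, and MIR196A2 at chr12:53991738-53991847 between HOXC10 and HOXC9. MIR10A lies inside the HOXB3 body at chr17:48579838-48579947.

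The gene numbered 13 and the low-numbered genes of each cluster were joined mostly to opposite flanks. Below, the posterior side is the DNA beyond the gene numbered 13, and the anterior side is the DNA beyond the lowest-numbered gene. HOXA13, a limb and genital tract regulator, had 38 listed loops, all towards the posterior side. HOXD13, a digit regulator, had 46, again all towards the posterior side. HOXB13, known for its role in prostate and colon, had 12, all towards the posterior side. HOXC13, which acts in hair and nails, had 25 towards the posterior and 5 towards the anterior side.

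In HOXA, HOXC and HOXD the turn from one flank to the other fell at the genes numbered 10 to 12. In HOXA, HOXA11 had 17 posterior-side loops and 1 anterior-side loop, and HOXA10 had 7 of each. All loops of HOXA2, HOXA3, HOXA4, HOXA5, HOXA6, HOXA7 and HOXA9 went to the anterior side. HOXD turned between HOXD12, with 11 posterior-side and 15 anterior-side loops, and HOXD11, with 5 and 86. HOXD1, HOXD3, HOXD4, HOXD8, HOXD9 and HOXD10 had anterior-side loops only. In HOXC, HOXC12 had 14 posterior-side and 13 anterior-side loops, and HOXC11 had 5 and 24. In HOXB, all 308 loops of HOXB3 to HOXB9 went to the anterior side. The wide gap between HOXB9 and HOXB13 held the turn: the noncoding gene LINC03057 had 9 posterior-side and 14 anterior-side loops, and its neighbour LINC02086 had 132 and 1.

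**Figure D1:**
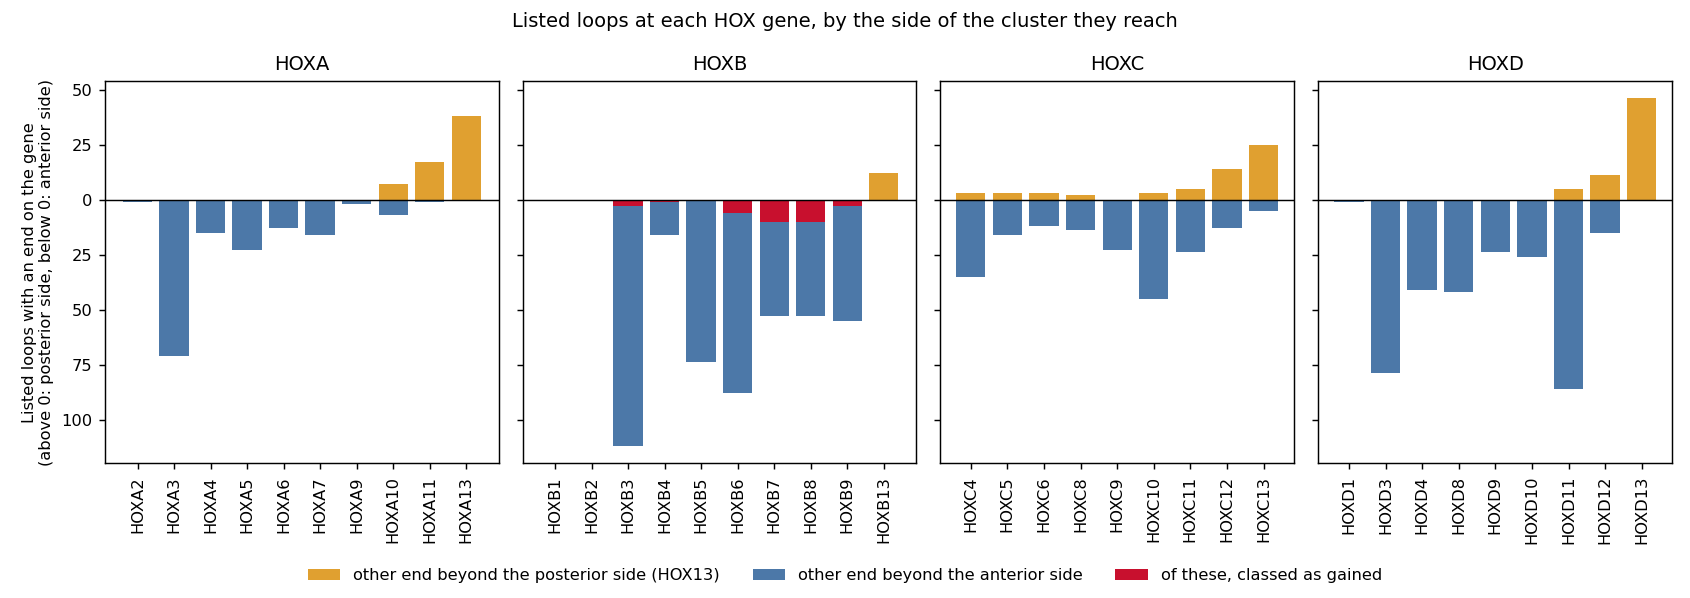
Number of listed loops with an end on each HOX gene (vertical axis, loops), drawn upwards where the other end lay beyond the posterior side of the cluster and downwards where it lay beyond the anterior side, with the gained loops in red. HOXA13, HOXB13 and HOXD13 have upward bars only (38, 12 and 46 loops), and red appears only in the HOXB panel.

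Over all 4 clusters, 12 of the 36 genes with a listed loop had loops to both sides, 3 to the posterior side only and 21 to the anterior side only. Of the 12, 8 belonged to HOXC, whose only one-sided gene was HOXC9 with 23 anterior-side loops. The anterior genes (numbers 1 to 3) had 263 loops in all and 0 of them went to the posterior side. Nearly all lay at HOXA3 (71), HOXB3 (112) and HOXD3 (79), whose bodies overlap central genes. HOXC has no member numbered 1 to 3. The anterior and central counts are therefore in part the same loops. The central genes (4 to 8) had 5 of 391, all 5 in HOXC, and the posterior genes (9 to 13) had 176 of 475. A loop touching genes of different classes counts in each. The split was steepest in HOXA, where 55 of the 64 loops at HOXA9 to HOXA13 went to the posterior side, against 0 of 54 at the central genes. Noncoding genes at these positions had similar sides, but share loops with the HOX genes beside them. HOTTIP, just beyond HOXA13, had 51 loops, all to the posterior side. HOTAIR, which lies beside HOXC12 and overlaps HOXC11, had 7 to the posterior and 26 to the anterior side. Anterior-side loops only were listed at the hairpins MIR196B (3), MIR10A (8), MIR196A1 (11), MIR196A2 (15), MIR615 in HOXC (6) and MIR10B in HOXD (20). MIR3185, beside HOXB13 and sharing loops with it, had 19 loops, all to the posterior side. None of these microRNA loops was gained or lost.

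With ends read 1 kb inward, HOXA13, HOXB13 and HOXD13 still had posterior-side loops only (17, 12 and 46), and HOXA9 and the lower HOXA genes and HOXB3 to HOXB9 anterior-side loops only. Listed ends were then found at 31 genes, since HOXA2, HOXA7, HOXD1, HOXD9 and HOXD10 had none, as had HOXB1 and HOXB2. With ends read 10 kb inward, HOXB2 had 2 listed loops, both to the anterior side, so its count of 0 depends on the width. HOXB1 still had none.

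Overlapping gene bodies share loops, so the genes are not independent counts. HOXA3 (45.6 kb) covers HOXA4, HOXA5 and HOXA6, and held 71 loops. HOXB3 (41.4 kb) covers HOXB4. The bodies of HOXC4, HOXC5 and HOXC6 start at one position, and HOXD3 overlaps HOXD4. The most listed loops lay at HOXB3 (112), HOXD11 (91), HOXB6 (88), HOXD3 (79) and HOXB5 (74), and the fewest, apart from the 2 genes with none, at HOXA2 and HOXD1 (1 each) and HOXA9 (2). Per 10 kb of gene body plus 5 kb, HOXB5 ranked highest with 98.4 loops and HOXA2 lowest with 1.36 among genes with any. The median over the 36 genes was 29.0 loops per 10 kb, against 3.86 over all 9909 genes at a listed end. Without scaling by length the medians were 26.5 and 15.0 loops per gene. The HOX genes and the 9909 genes were not matched for length, on which the scaled value depends. Counted over whole clusters with the DNA between genes, HOXD had 34.9 loops per 10 kb, HOXB 24.7, HOXC 21.4 and HOXA 16.5.

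Loops were shortest at HOXC. The median was 209 kb at HOXC (197 to 220 kb, exact binomial interval), 374 kb at HOXB (367 to 382 kb), 408 kb at HOXD (399 to 417 kb) and 437 kb at HOXA (413 to 482 kb). The whole list had a median of 234 kb. The intervals of HOXA and HOXD overlapped, and the order of those 2 clusters is not resolved. All 4 intervals treat neighbouring loops as independent, which they are not, and do not cover that dependence. Joined, the loops made 11 regions at HOXB and 21 at HOXD. With the DNA between genes counted, the HOXB median was 285 kb. The shortest loop was 61.1 kb, at HOXB13, and the longest 901 kb, at HOXA13.

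**Figure D2:**
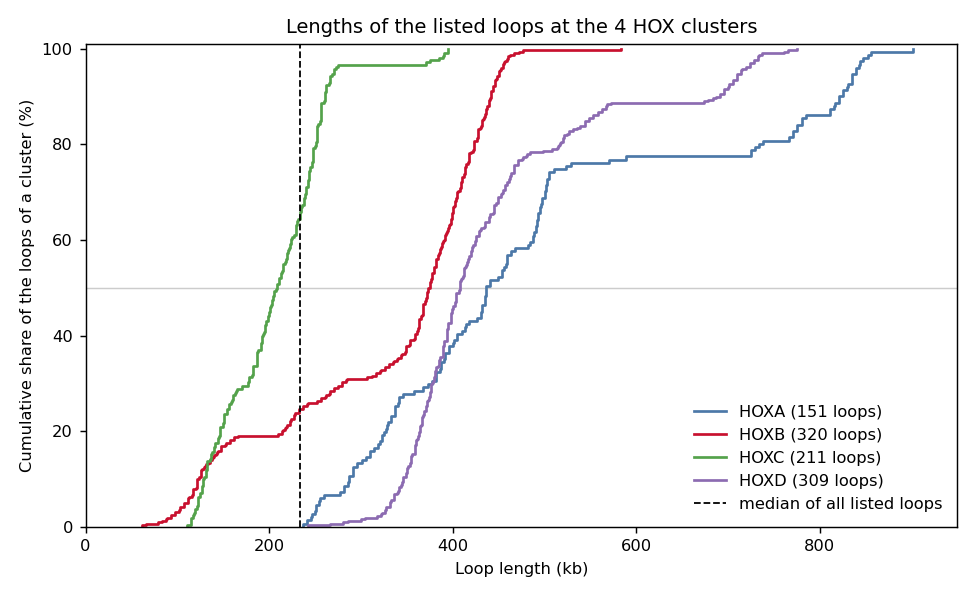
Cumulative share of loops (vertical axis, %) by loop length (horizontal axis, kb) at each of the 4 clusters, with the median of all listed loops as a dashed line. The HOXC curve lies furthest left with a median of 209 kb, and the upper parts of the HOXA and HOXD curves reach 901 and 775 kb.

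In HOXA and HOXD the posterior-side loops were longer by median, though not all were long. Posterior-side loops had a median of 571 kb in HOXA and 689 kb in HOXD, against 436 kb and 394 kb for anterior-side loops. The gene medians were 736 kb at HOXA13 (range 321 to 901 kb) and 682 kb at HOXD13 (range 380 to 738 kb). At HOXA11, with 17 posterior-side loops and 1 anterior-side loop, the median was 405 kb. At the HOXA genes with anterior-side loops only, the medians were from 255 to 494 kb. HOXC and HOXB had the opposite order. Posterior-side loops had a median of 180 kb in HOXC, with 224 kb on the anterior side, and of 153 kb in HOXB, with 377 kb on the anterior side.

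**Figure D3:**
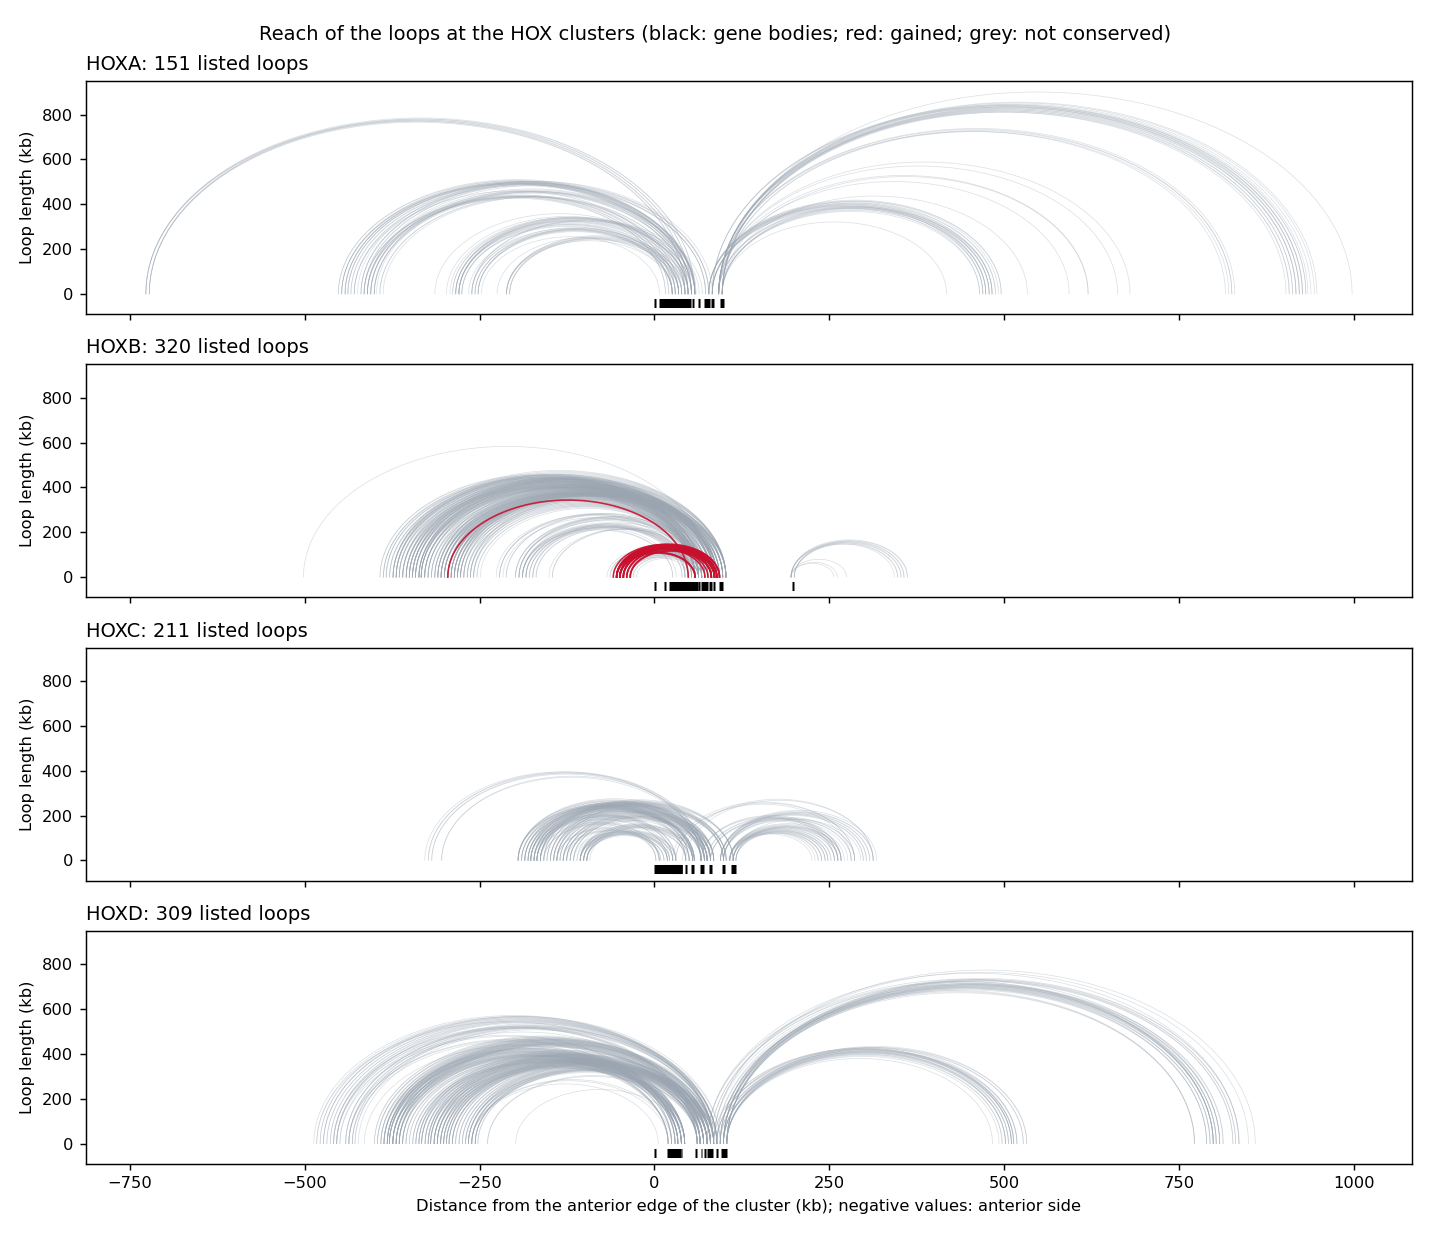
Each arc is 1 listed loop with an end on a HOX gene, drawn to scale against the distance from the anterior edge of its cluster (horizontal axis, kb), with height equal to loop length (kb) and gene bodies in black. Arcs leave each cluster to both sides, and the 22 gained loops (red) all leave HOXB to the anterior side.

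The protein-coding genes that held the most outer ends of HOXA and HOXB loops were paralogous neighbours. SKAP2, which encodes a signalling adaptor of immune cells, held the other end of 77 of the 151 HOXA loops (51.0%), at a median length of 435 kb. SKAP1, its paralogue beside HOXB, held 258 of the 320 HOXB loops (80.6%), at a median of 389 kb. Both gene bodies are long (SKAP2 chr7:26654770-26864590, SKAP1 chr17:48133442-48445061), and these counts were not scaled by gene length. On the posterior side, HOXA loops ended at JAZF1, a zinc finger gene (26 loops, median 828 kb), and HIBADH, an enzyme of valine breakdown (23 loops, 392 kb). TAX1BP1, an autophagy receptor, held 2 on that side. SNX10, a sorting nexin on the anterior side, held 4. HOXB13 reached TTLL6, a tubulin glutamylase gene, with 3 loops, and HOXB reached COPZ2, a coatomer subunit gene, with 1.

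Smaller shares of the HOXC and HOXD loops ended at a protein-coding gene. Of the 211 HOXC loops, 83 (39.3%) ended at one. SMUG1, a uracil-DNA glycosylase gene, held 39 and CBX5, which encodes the heterochromatin protein HP1 alpha, held 37. ZNF385A and GPR84 held 5 and 2. The posterior-side loops of HOXC, 52 in number, all ended on the noncoding gene LOC105378250. None of the 309 HOXD loops had its outer end on a protein-coding gene outside the cluster. HOXD is known to lie between gene deserts that carry its limb enhancers, and the noncoding genes with most of its outer ends were LOC107985962 (27 loops), LINC01116 (16) and LINC01117 (15). The outer ends of 238 of the 309 loops lay on neither a protein-coding nor a long noncoding gene. The shares of loops with the outer end on a protein-coding gene were 87.4% at HOXA and 81.9% at HOXB.

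HOXC was also the cluster that listed loops passed over. There were 48 loops with both ends outside HOXC and the cluster between them, 416 to 466 kb long. All 48 started on LOC105378250, and 12 of them ended on SMUG1. No listed loop enclosed HOXA, HOXB or HOXD in this way. None of the 48 was gained or lost.

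In the authors' deposited table, gained loops at HOX genes lay in HOXB. HOXB had 22 gained of 320 listed loops, a share of 6.88% (4.58 to 10.2%), whereas 1.96% of all listed loops and 3.22% of those on chromosome 17 were gained. HOXA had 0 gained of 151, HOXC 0 of 211 and HOXD 0 of 309. At the share of the whole list, 2.97, 4.15 and 6.07 gained loops would stand at these 3 clusters and 6.29 at HOXB. Taken as the share that 3 counts would make, a count of 0 allows up to 1.99% at HOXA, 1.42% at HOXC and 0.971% at HOXD if loops were independent. The Wilson upper limits are wider, 2.48%, 1.79% and 1.23%. On both limits, a share at HOXA equal to that of the whole list was not detectable with 151 loops. The limits at HOXC and HOXD lie below that share only if loops are independent. Joined, their loops made 15 and 21 regions, so their counts of 0 do not exclude that share. No lost loop lay at any HOX gene, where 0.196% of all listed loops were lost. A count of 0 of 991 allows up to 0.303% as the share of 3 counts, so it does not exclude the share of the list.

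By gene, the gained loops of the authors' deposited table lay mostly at central genes. HOXB7 and HOXB8 each had 10 gained of 53 listed loops, a share of 18.9% (10.6 to 31.4%). HOXB6 had 6 of 88, HOXB9 and HOXB3 had 3 of 55 and 3 of 112, and HOXB4 had 1 of 16. HOXB5, between HOXB4 and HOXB6, had 0 of 74, and HOXB13 had 0 of 12. A loop at a border counts at both genes. In all, 6 of the 36 HOX genes with listed ends had a gained loop (HOXB3, HOXB4, HOXB6, HOXB7, HOXB8 and HOXB9), where 12.7% of all genes at a listed end had one. The 6 are neighbours and share loops. None of the 36 had a lost loop, where 1.85% of all genes had one. With 36 genes, 0 cannot be told from that share.

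With ends read 1 kb inward, HOXB7 had 4 gained of 25 listed loops, HOXB8 6 of 28, and HOXB6 2 of 63. The 5 kb window behind 4 of the gained loops at HOXB6 reached its body by 115 bases only. HOXB3, HOXB4 and HOXB9 had 3, 1 and 3 gained loops, as with 5 kb. With ends read 10 kb inward, HOXB6 had 12 gained loops, HOXB7 14, HOXB8 13 and HOXB4 3, and HOXB5 had 1 of 93, so its count of 0 depends on the width. Over the cluster, 18 gained loops were counted with ends of 1 kb and 22 with ends of 10 kb.

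Nearly all gained loops of HOXB started from one stretch of DNA. In the authors' deposited table, 21 of the 22 had their left end at 6 positions between 48469593 and 48493859 on chromosome 17. With 5 kb inward the stretch lies at chr17:48469593-48498858, from 29.7 to 58.9 kb beyond the anterior edge of HOXB1. It holds no protein-coding gene and 1 noncoding one, LOC124904019. The 6 left-end positions had 43 listed loops, and all 43 ended on HOXB genes. Listed loops to HOXB genes also started at 48498123, inside the stretch, and at 48464903, whose 5 kb reached into it. None of these was gained, and they are not among the 43. The remaining gained loop was 344 kb long, from SKAP1 to the HOXB3 and HOXB4 bodies. Without loops from the 6 positions, HOXB had 1 gained of 277 listed loops.

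Among the loops from these 6 left-end positions, the class varied with the gene at the far end and with the left end. Ends at HOXB7 and HOXB8 (outer position 48614402) gave 6 gained of 6 listed loops, and those at HOXB9 (48621564) 3 of 3. The outer positions on either side of the first, 48609871 and 48617745, gave 4 of 5 each. The 2 positions at HOXB5 (48591514 and 48596159) gave 0 of 6 and 0 of 5. The first of these also touches HOXB3 and the second HOXB6. Of the other positions at HOXB3, 48586546 gave 2 of 6 and 48576894, shared with HOXB4, gave 0 of 1. The positions at HOXB6 alone, 48600639 and 48605030, gave 1 of 4 and 1 of 2. The 4 positions farthest from the stretch held 17 of its 21 gained loops among 19 listed, and the nearer ones 4 among 24. By left end, 48474439 gave 6 gained of 8 listed loops, 48479134 6 of 9 and 48484010 4 of 9. The left ends 48488938, 48493859 and 48469593 gave 2 of 8, 2 of 6 and 1 of 3. The gene at the far end, the left end and loop length were not separated. HOXB1 and HOXB2, the genes closest to the stretch, had no listed loop with ends read 5 kb inward. Neighbouring pairs of positions are not independent, and the 22 loops joined into 3 regions when both ends lay within 10 kb.

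**Figure D4:**
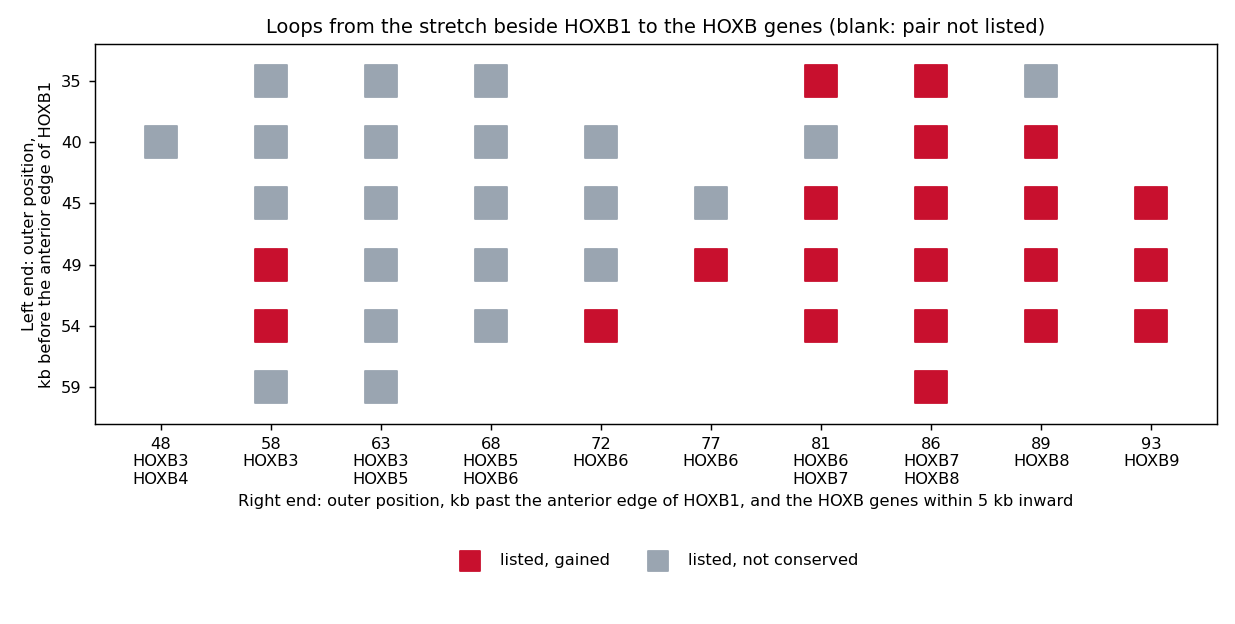
Pairs of loop ends between the stretch beside HOXB1 (vertical axis, kb before the anterior edge of HOXB1) and the HOXB genes (horizontal axis, kb past that edge), red where the listed loop was gained, grey where it was not conserved and blank where the pair was not listed. The listed pairs in the columns at HOXB7, HOXB8 and HOXB9 are nearly all red, and those in the 2 columns at HOXB5 are all grey.

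The gained loops of HOXB were short for the cluster. Their median was 132 kb, against 379 kb for its loops that were not conserved. Of the 44 HOXB loops of 100 to 150 kb, 21 were gained in the authors' deposited table, or 47.7% (33.8 to 62.1%). Of all listed loops of that length 1.09% were gained, and HOXC, the only other cluster with loops of that length, had 0 of 46. Among loops of 250 to 500 kb, HOXB had 1 gained of 236 and HOXD 0 of 242, where 1.87% of the list was gained. The length bands were set after the gained loops had been seen.

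The DNA between HOXB9 and HOXB13 held a second set of gained loops that touched no HOX gene. In the authors' deposited table these were 9 loops of 358 to 386 kb, from chr17:48663000-48691579 in LINC02086 to chr17:49039403-49053853 in IGF2BP1, which encodes an RNA-binding protein of fetal and cancer cells. They ran to the posterior side, opposite to those of HOXB6 to HOXB9. With the DNA between genes counted, HOXB had 31 gained of 495 listed loops, HOXA 0 of 165, HOXC 0 of 251 and HOXD 0 of 361. Among loops within 1 Mb that had no end in the cluster, 14 of 394 were gained around HOXB, 3 of 435 around HOXC, and 0 of 183 and 0 of 84 around HOXA and HOXD.

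Genes that work with or beside the HOX clusters gave the following counts in the authors' deposited table, to be read against the 12.7% of all genes at a listed end with a gained loop and the 1.85% with a lost one. The lists hold from 5 to 40 genes with listed ends, and none was tested for a difference from these shares. Of 58 flanking genes, 40 had a listed end and 8 of them a gained one: IGF2BP1 (15 of 72 listed loops), NFE2L3 (4 of 5), TTLL6 (4 of 84), DLX3 (3 of 18), ATF7 (3 of 37), SKAP1 (1 of 310), ATP5MC1 (1 of 12) and ATP5MC2 (1 of 16). The TALE homeodomain cofactors, PBX, MEIS and PKNOX proteins that bind DNA together with HOX proteins, had 0 gained and 0 lost at the 6 of 9 with listed ends, a number too small to tell from 12.7%. Of the Polycomb and Trithorax regulators, which keep HOX genes silent or active, 1 of 18 had gained loops, PCGF5 with 14 of 135. Among genes of retinoic acid, the vitamin A signal that activates anterior HOX genes, CYP26A1, which degrades it, had 2 gained of 10 and ALDH1A3, which makes it, had 2 lost of 38, with 12 genes at listed ends. Of 15 other homeobox genes of the same class, DLX3 and DLX6 had gained loops (3 of 18 and 3 of 6) and EN1 had 3 lost of 100. Of the 5 CTCF and cohesin genes with listed ends, STAG1 had 2 gained of 15.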

How the data were processed

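Hi-C was measured in 3 samples, 1 library per group. Chromatin was cut with DpnII and ligated ends were captured through biotin, per the labels' protocols. The loop classes are words given by the authors in the deposited loop list, whose name states hg38. Without giving roles, hg19, hg38 and Bowtie are listed per the submitters' processing notes. For the loop caller, any coverage correction and the thresholds, the sources used here give nothing. Of 279669 rows, 49 without a class word and 2 repeats were left out. The 6 value columns of the compartment table match no sample label and were not used, so the planned compartment comparison was not made.

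Loop ends were read 5 kb inward, as windows counted from 1, and set against gene bodies of RefSeq GRCh38.p14, the assembly hg38 names. That gene table has no exons. Python 3.11.15, pandas 2.3.3, NumPy 2.4.6 and SciPy 1.17.1 were used. Intervals of medians are exact binomial ones. Every member was named. Other genes were named by a rule: fixed neighbours with a gained or lost loop to a member, and up to 10 protein-coding partners per cluster. LINC02086, IGF2BP1, noncoding genes and genes of the lists were named after their values were seen. Overlap counting and joining were tested on planted loops. Members and lists were chosen with earlier results of these data known. Alternatives varied end width, end position, gene width, short loops, the DNA between genes and joining.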

Additional observations from a re-analysis of the deposited data

How the results depend on the processing

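There were 118 alternative values for the counts of gained, lost and listed loops, the median lengths and the shares leaving each cluster. Of these, 109 stayed within 1.5 times the count or inside the interval and 9 did not. Some of the 109 could not have moved. HOXA, HOXC and HOXD had no loop shorter than 100 kb to leave out. Narrower ends or joining cannot raise a count of 0. Joining neighbouring loops into regions lowered the listed counts to 21 at HOXA, 11 at HOXB, 15 at HOXC and 21 at HOXD, and the gained count at HOXB to 3, by construction. Leaving out loops from the 6 left-end positions beside HOXB1, an alternative chosen after seeing the data, left 1 gained loop. Counting the DNA between genes gave 495 listed loops at HOXB with a median of 285 kb, and ends read 1 kb inward gave 203 at HOXD, from the narrower window itself. Lost loops were 0 in all 20 alternatives, though those with narrower ends or without short loops could only return 0. No paired analysis was possible because no group holds a replicate and loops have no value per library. How sequencing depth bears on the classes was not tested, since the list gives none.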
